A study of Mus musculus with 4 samples.

Results

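The transcription factor and coactivator genes Scx, Mkx, Egr1, Egr2, Six2, Eya1 and Eya2, all tied to tendon and ligament, were followed across 4 mouse arrays. Their probes were found by the gene name printed in the scanner files, which gave 9 probes for the 7 genes out of 39429 probes and 30419 gene names. Six2 had 3 probes and the other genes had 1 each. The rule uses the gene names and no signal, but the genes were proposed with earlier results of these data known.

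The study put total RNA of 4 samples on Agilent arrays labelled with Cy3, 1 array each. The transfected tissue was ligament-like tissue grown from C3H mesenchymal stem cells that received a mouse gene, called A in the labels, in the plasmid pCAGGS, which drives strong expression in many mammalian cell types. Transgenic ligament came from C57BL/6J mice carrying the same plasmid, introduced into fertilised eggs and detected by PCR of tail DNA, and wild type ligament came from C57BL/6J mice without it. The stem cells were the untransfected C3H mesenchymal stem cells, taken from mouse embryos and obtained from a cell bank. The labels give neither the identity of A nor the age or number of the mice, nor which ligament was taken, so the level of A itself could not be looked up. With 1 array in each group there were no replicates, and nothing could be tested. Strain, culture and tissue differ together in every comparison of ligament with cells and cannot be told apart. The transfected tissue differed from the stem cells in A and in having been grown into ligament-like tissue, and these cannot be told apart either.

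A signal is given below as a multiple of the 75th percentile of all probe spots on its array and called the normalised signal. Levels of different probes are not set against each other. Higher and lower stand for differences of at least 2-fold. In the transfected tissue over stem cells 11.0% of all genes compared were higher and 13.3% lower. In transgenic over wild type ligament the shares were 6.29% and 7.05%, and in wild type ligament over stem cells 37.7% and 24.5%. In the transfected tissue over wild type ligament they were 23.0% and 39.7%. Counts of list genes and markers below are to be read beside these shares. The scanner software marks spots that are well above background. Where the dimmer of the compared arrays lacked that mark, the fold is a lower bound, taken against the array's dimmest marked signal or the probe's own signal, whichever was greater. Such a bound was kept only where the marked array was the higher one. A gene with a bound under 2-fold may still differ by more than 2-fold. The error beside a log2 difference is the SD of spot noise, from probes spotted 10 times on each array, and it leaves out the spread between cultures or animals. In bulk RNA, fewer cells of a type and less RNA per cell cannot be told apart.

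The 75th percentile itself lay between 2272 in the transfected tissue and 285 in wild type ligament, and 49.0% to 56.3% of the spots were well above background. All 4 arrays lay on 1 slide. Of 16 tendon matrix genes, 13 were well above background on the transfected tissue array, all 16 on both ligament arrays and 14 on the stem cell array. The ligament arrays also carried muscle RNA: the summed normalised signal of 9 skeletal muscle markers was 0.698 in the transfected tissue, 5447 in transgenic ligament and 6296 in wild type ligament, against 1.97 in stem cells. Myh1, Myh2 and Mb were not well above background on either cell array. Blood, skin, bone and cartilage markers differed between the ligaments. The summed signal of 6 neutrophil markers was 418 in transgenic and 1175 in wild type ligament, and that of 4 erythroid markers was 87.8 and 414. The summed signal of 5 epidermal markers was 155 in transgenic and 27.6 in wild type ligament, and that of 6 bone markers was 186 and 46.3. The 6 cartilage markers summed to 6.19 in transgenic and 1.54 in wild type ligament. The part of these cells in any difference below was not tested.

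Scleraxis, encoded by Scx, is a basic helix-loop-helix factor that marks tendon and ligament progenitors and activates tendon matrix genes such as Tnmd and Col1a1. Mohawk, encoded by Mkx, is a homeobox factor of the TALE class needed for normal collagen fibrils in tendon. Egr1 and Egr2 are zinc finger factors of the immediate early class, switched on within minutes by growth factors and mechanical load, and in tendon they lie upstream of collagen genes. Six2 is a homeodomain factor of the sine oculis family, and Eya1 and Eya2 are coactivators with phosphatase activity that have no DNA-binding domain of their own and act through proteins of that family. All of them take part in limb connective tissue, and sine oculis and EYA proteins also act in muscle precursors.

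The probe of Eya1 carries a feature that bears on every value given for that gene. It lies on chromosome 1 from 14159982 to 14160041 of mm9, on the minus strand, and it ends in an alternating GT run of 34 bases. Probes of 3 other genes, the nearest to Eya1 in profile over the 4 arrays among genes with an official-style symbol (Gm10405, a predicted gene with a GT run of 22 bases, lay between the second and the third), are shown beside it, each as a stretch of 30 bases, 5′ to 3′, with the GT run in capitals.
Eya1: ttgtgtacgtgaGTGTGTGTGTGTGTGTGT
Skint7: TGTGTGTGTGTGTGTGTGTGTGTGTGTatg
Septin3: gtattttgtctaGTGTGTGTGTGTGTGTGT
Tnfrsf9: actgtaaaatcaGTGTGTGTGTGTGTGTGT
These runs were 27 bases long in the whole Skint7 probe, 37 in Septin3 and 22 in Tnfrsf9. The array held 52 probes, for 52 gene names, with a GT run of at least 20 bases. All 52 were well above background on all 4 arrays, against 41.2% of the 39365 probes with a value on every array.

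The Eya1 signal had the profile that GT-repeat probes share. After each probe's own mean over the 4 arrays was subtracted, 45 of the other 51 GT-run probes lay within a Euclidean distance of 0.5 (log2) of Eya1, against 1142 of all 39365 probes. The median distance of the 51 was 0.105. The median log2 differences of the GT-run probes were -0.78 in the transfected tissue over stem cells and -0.43 in transgenic over wild type ligament. The same differences of the Eya1 probe were -0.82 and -0.42, and the medians of all 39365 probes, detected or not, were -0.003 and -0.30. No probe read for the gene lists below had a GT run of 20 bases. The look at repeats was added after the Eya1 sequence had been seen. The Eya1 values are given as readings of this probe, and the share of its signal that came from Eya1 mRNA was not tested.

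**Figure D1:**
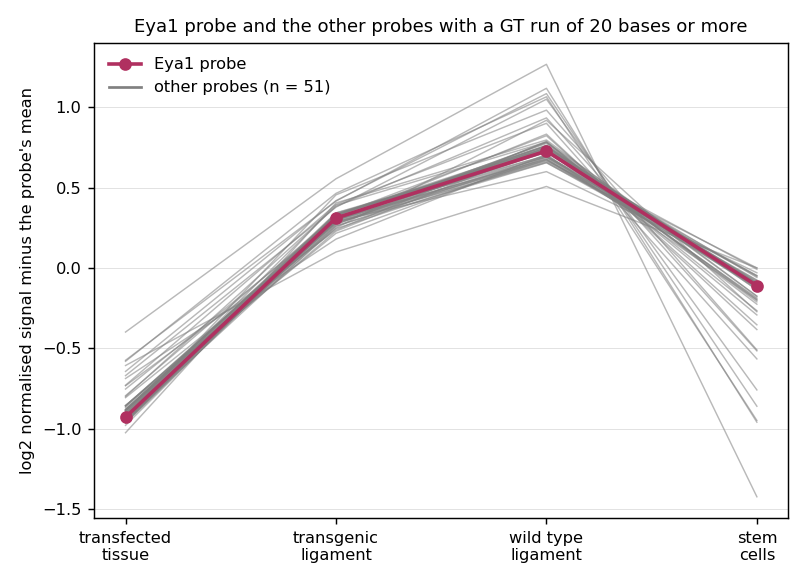
Log2 normalised signal minus the probe's own mean (y axis) on the 4 arrays (x axis), for the Eya1 probe (thick line) and the other 51 probes with a GT run of at least 20 bases (grey lines). The Eya1 line runs through the middle of the bundle, lowest in the transfected tissue and highest in wild type ligament.

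Scx was highest in ligament and lowest in the transfected tissue. Its probe (chromosome 15, 76289708 to 76289767, mm9, plus strand) had a background-subtracted signal of 1002 ± 101 in the transfected tissue, 2593 ± 259 in transgenic ligament, 1158 ± 116 in wild type ligament, against 1728 ± 173 in stem cells, where the error is the scanner software's own. The normalised signals were 0.441 in the transfected tissue, 8.57 in transgenic ligament, 4.06 in wild type ligament, against 1.48 in stem cells. The order was thus transgenic ligament, wild type ligament, stem cells and transfected tissue, with every neighbouring step larger than the SD of its spot noise.

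Scx was lower in the transfected tissue than in the stem cells it was grown from, with a log2 difference of -1.75 ± 0.20, a 3.36-fold gap. It was higher in transgenic than in wild type ligament, by 1.08 ± 0.15 or 2.11-fold. The gene thus differed in opposite directions in culture and in the animal, a contrast that was not tested. In the deposited values the ligament difference was 1.00, just under 2-fold. Wild type ligament over stem cells gave 1.45 ± 0.21, and the transfected tissue over wild type ligament gave -3.20 ± 0.12, a 9.20-fold gap.

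The helix-loop-helix relatives and partners of Scx were set beside it. E proteins (Tcf3, Tcf4, Tcf12) pair with Scx to bind DNA, and the Id proteins take up E proteins without binding DNA. Of 9 such genes compared in the transfected tissue over stem cells, 2 were lower and none higher: Id1 at -1.16 and Id4 at -2.35. Over all genes 13.3% were lower and 11.0% higher there. Of 10 compared in transgenic over wild type ligament none was past 2-fold and 9 lay above 0 (median log2 difference 0.57 against -0.03 over all genes). For Id4, Twist1 and Twist2, not well above background in wild type ligament, these were lower bounds of 0.43, 0.82 and 0.89. Their differences may be larger, and a bound kept here could only be positive. With both arrays well above background 6 of 7 were above 0 (median 0.35 against -0.06). With normexp correction the median of the 10 was 0.25. In wild type ligament over stem cells 7 of 10 were lower, among them Id3 at -3.78, and 1 was higher (24.5% and 37.7% of all genes). That gene was Tcf15, the closest relative of Scx and a factor of early somites, at least 44.3-fold higher with a normalised signal of 0.803 in wild type ligament against 0.00490 in stem cells, where it was not well above background.

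Mkx was well above background on both cell arrays and on the transgenic ligament array, and not in wild type ligament. Its normalised signal was 0.421 in the transfected tissue, 0.0981 in transgenic ligament, 0.0244 in wild type ligament, against 0.414 in stem cells. The cell arrays were level with each other, with a log2 difference of 0.02 ± 0.20 in the transfected tissue over stem cells. The transfected tissue was at least 4.47-fold above wild type ligament, and wild type ligament lay below stem cells by a bound of -2.14 on the log2 scale. With normexp background correction, which adds an offset to every signal, these bounds were 0.78 and -0.74 (log2), within 2-fold. Transgenic over wild type ligament gave a bound of only 1.04-fold, since the transgenic signal of 29.7 ± 6.00 lay close to 26.9, the lowest well-above-background signal of the wild type array. The Mkx probe lies on chromosome 18.

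The homeobox relatives of Mkx (IRX, TGIF, MEIS and PBX genes) split in the same comparison. Of 12 compared in wild type ligament over stem cells, 6 were lower and 3 higher, against 24.5% and 37.7% of all genes. The homeobox factor Meis2 (-4.34) and Irx1 (-4.22) were lowest and Irx2 was at least 15.8-fold lower, while Irx4 was higher by 1.72. In transfected tissue over stem cells, 11 of 12 were not past 2-fold and Irx6 was at least 8.06-fold lower, where 13.3% of all genes were lower. Of the 12, 10 were well above background on both arrays and the rest were bounds. In transgenic over wild type ligament none of the 10 that could be compared was past 2-fold, 9 of them well above background on both arrays.

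Egr1 and Scx gave the widest spreads of the members that were well above background on every array, nearly level at 4.33 and 4.28 (log2). The normalised signal of Egr1 was 6.07 in the transfected tissue, 1.05 in transgenic ligament, 0.301 in wild type ligament, against 5.01 in stem cells. The cell arrays were near each other and far above ligament, and transgenic ligament lay between them and wild type ligament. Transgenic over wild type ligament gave a log2 difference of 1.80 ± 0.15 (3.48-fold), from background-subtracted signals of 317 ± 31.9 and 85.9 ± 10.1. The transfected tissue over stem cells gave 0.28 ± 0.20, within 2-fold. Wild type ligament lay 16.6-fold below stem cells (-4.06 ± 0.21) and the transfected tissue 20.2-fold above wild type ligament.

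Egr2 had the same lowest and highest arrays over a smaller range. Its probe (chromosome 10, 67004798 to 67004857, mm9, plus strand) had a normalised signal of 0.371 in the transfected tissue, 0.276 in transgenic ligament, 0.110 in wild type ligament, against 0.217 in stem cells. Transgenic over wild type ligament differed by 1.33 ± 0.15 (2.52-fold) and the transfected tissue over stem cells by 0.77 ± 0.20 (1.70-fold). The wild type signal was dim, at 31.3 ± 6.74 before scaling. With normexp correction the transgenic over wild type difference of Egr2 was 0.43, within 2-fold, while that of Egr1 was 1.23. Egr2 is also a factor of myelinating Schwann cells. The summed signal of 8 Schwann cell markers was 14.5 in the transfected tissue, 12.7 in transgenic ligament, 11.7 in wild type ligament, against 14.2 in stem cells. The sum rests mostly on its brightest members and the list did not move as one. Of 8 compared in transgenic over wild type ligament none was higher and 1 lower, and of 8 in wild type ligament over stem cells 5 were higher and none lower (median 2.73). In the transfected tissue over stem cells 2 of 7 were higher. The part of Schwann cells in the Egr2 signal was not tested.

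The partners of the EGR factors could be compared in part. Egr3 and Egr4 were not well above background on any array. Nab1 and Nab2 encode corepressors that bind EGR proteins, and Nab2 is itself an EGR target. Nab2 was 2.18 higher on the log2 scale in transgenic than in wild type ligament (normalised signals 2.43 and 0.535) and 1.68 lower on that scale in the transfected tissue than in stem cells (3.94 and 12.6). Nab1 lay within 2-fold in both, at 0.64 and 0.36. Both genes were lower in wild type ligament than in stem cells, by -4.56 for Nab2 and -2.47 for Nab1.

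Other immediate early genes were mostly above 0 in transgenic over wild type ligament without reaching 2-fold. Of 16 compared there, 15 had a positive and 1 a negative difference, also with normexp correction, with quantile normalization, with centring on detected probes and in the deposited values. With the less strict detection mark 16 of 19 were positive, and with both arrays well above background 14 of 15. The median was 0.57 against -0.03 over all genes. Past 2-fold were 2 of them, the stress factor Atf3 (2.41) and the matrix signalling protein Ccn2 (1.86). In the transfected tissue over stem cells, 10 of 19 were positive and 9 negative with a median of 0.12 against -0.08 over all genes. There Atf3 (2.76) and the phosphatase Dusp1 (1.54) were higher, and Fosl1 (-4.05), Ccn2 (-1.75) and Klf2 (-1.38) were lower. In wild type ligament over stem cells 12 of 18 were lower and 2 higher.

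**Figure D2:**
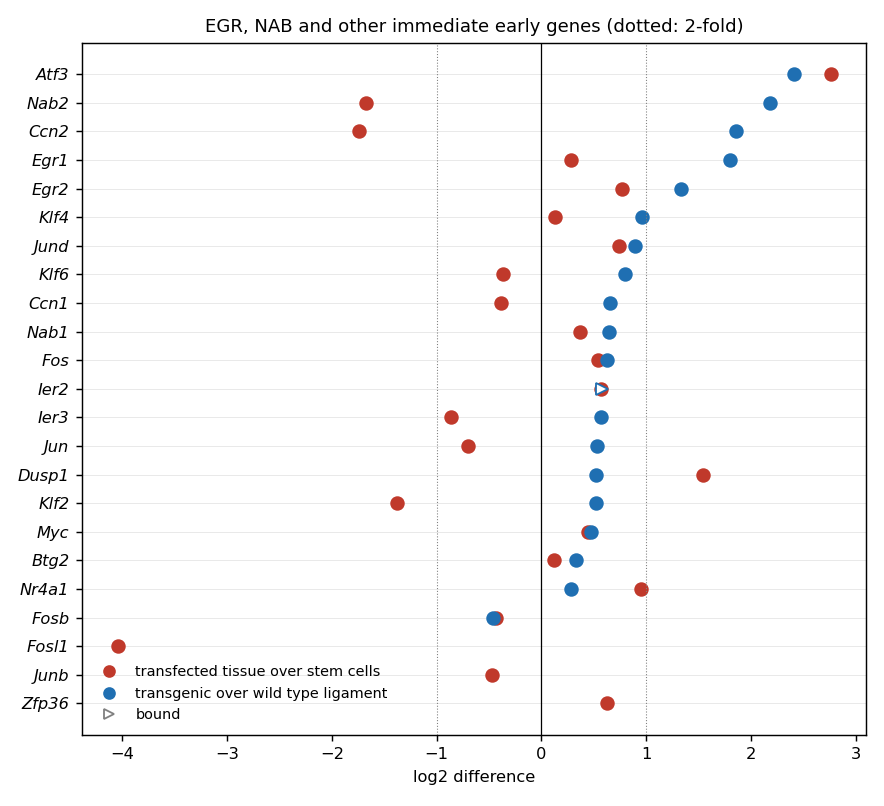
Log2 differences (x axis) of Egr1, Egr2, the NAB corepressors and other immediate early genes (y axis), in the transfected tissue over stem cells (red) and transgenic over wild type ligament (blue), with 2-fold dotted and a bound as an open triangle. The blue points lie to the right of 0 except Fosb, while the red points lie on both sides, and Nab2 and Ccn2 are past 2-fold in opposite directions.

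The Egr2 promoter held a CArG box, the element through which serum response factor drives immediate early genes. It is shown because Egr2 was among the members higher in transgenic ligament and promoter sequence was at hand for it. The stretch covers the 100 bases before a RefSeq start of Egr2 on the plus strand (chr10:67537769-67537868, GRCm38.p6), with the box in capitals.
Egr2: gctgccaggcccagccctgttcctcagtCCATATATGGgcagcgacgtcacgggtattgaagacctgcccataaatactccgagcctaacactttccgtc
The motif, which reads the same on both strands, was sought without mismatch in the RefSeq promoter windows around each start. A box outside these windows, or with a mismatch, was not counted, so a gene without a match may still have one. Of 5 Egr2 windows, which can overlap and so share a box, 4 held one. It was present in 488 of 27025 genes with a promoter sequence (1.81%). Of the other immediate early genes, 1 of 15 with a sequence had it (Zfp36), and of 4 EGR and NAB genes, 3 had a sequence and none had the box. The match describes this window and does not show that the factor bound there.

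Six2 was the member that differed least over the 4 arrays by its brightest probe, but its probes did not give the same reading. The normalised signal of the brightest probe (chromosome 17, 86083634 to 86083693, mm9, minus strand) was 3.99 in the transfected tissue, 3.83 in transgenic ligament, 4.52 in wild type ligament, against 6.84 in stem cells, a range of 1.79-fold. All 4 comparisons lay within 2-fold, the widest being -0.78 ± 0.20 in the transfected tissue over stem cells. The second probe (86083986 to 86084045) read 0.364 in the transfected tissue, 0.141 in transgenic ligament, 0.301 in wild type ligament, against 0.434 in stem cells. In transgenic over wild type ligament it gave -1.09 ± 0.15, a 2.14-fold lower signal, where the brightest probe gave -0.24 ± 0.15. The second probe was dim there, at 42.7 ± 5.91 in transgenic and 86.0 ± 10.1 in wild type ligament before scaling. The third probe (86082307 to 86082366), designed to a cDNA clone, was well above background only on the cell arrays, at 0.0378 in the transfected tissue and 0.0414 in stem cells. The first 30 bases of each are given so that the probes can be told apart, in order of position from the third to the second.
Six2, cDNA clone probe: attgtctgaaagtctgtctggagaattcca
Six2, brightest probe: ccattttacgccctcatgtgaatgttcgtc
Six2, remaining probe: ggtgtcatctatttgagttcctttctcaac
None of these probes shared a run of 20 bases with another probe on the array.

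Eya2 was well above background in both ligaments and on neither cell array. Its probe (chromosome 2, 165597072 to 165597131, mm9, plus strand) read 0.00536 in the transfected tissue, 0.996 in transgenic ligament and 0.698 in wild type ligament, against 0.00416 in stem cells. By the software's less strict mark, positive and significant, it was also detected in the transfected tissue, and its difference from wild type ligament was then -7.02 (log2). Wild type ligament was thus at least 38.5-fold above stem cells, and the transfected tissue at least 36.7-fold below wild type ligament. The transfected tissue and stem cells could not be compared. Between the ligaments Eya2 differed by 0.51 ± 0.15, within 2-fold. The second part of the probe is shown because it holds the polyadenylation signal AATAAA (capitals) and no GT run such as that of Eya1.
Eya2: gcattcAATAAAaaccacgtttacatttta

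The Eya1 probe read 10.71 in the transfected tissue, 25.3 in transgenic ligament, 33.8 in wild type ligament, against 18.9 in stem cells. It was the only probe of the 9 that shared 20 bases with others, 51 of them. Its single reading past 2-fold, -1.66 ± 0.12 in the transfected tissue over wild type ligament, had a counterpart of -1.64 in the median of the GT-run probes. The median of all 39365 probes, detected or not, was -1.59 there, so this value does not set the GT-run probes apart.

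Other genes of the sine oculis, EYA, DACH and PAX network lay on both sides. Of 12 such genes, 8 could be compared in wild type ligament over stem cells, 3 higher and 3 lower, against 37.7% and 24.5% of all genes. The higher genes were the corepressors Dach1, at least 53.6-fold, and Dach2, at least 7.94-fold, and the homeobox gene Six3, at least 38.4-fold. The lower genes were Six5 (-1.93), Eya4 (-1.69) and Eya3 (-1.41). In the transfected tissue over stem cells none of 7 genes was past 2-fold, but only 5 were well above background on both arrays and the rest were bounds. In transgenic over wild type ligament Six5 was higher (1.05, or within 2-fold with normexp correction) and the other 7 lay within 2-fold. Beside these, 5 muscle precursor markers (Myod1, Myf5, Myf6, Myog and Chrna1) had a summed signal of 0.0230 in the transfected tissue, 10.1 in transgenic ligament and 8.46 in wild type ligament, against 0.0226 in stem cells. None of the 5 was well above background on a cell array. The part of muscle RNA in the Eya2, Dach and Six3 signals was not tested.

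**Figure D3:**
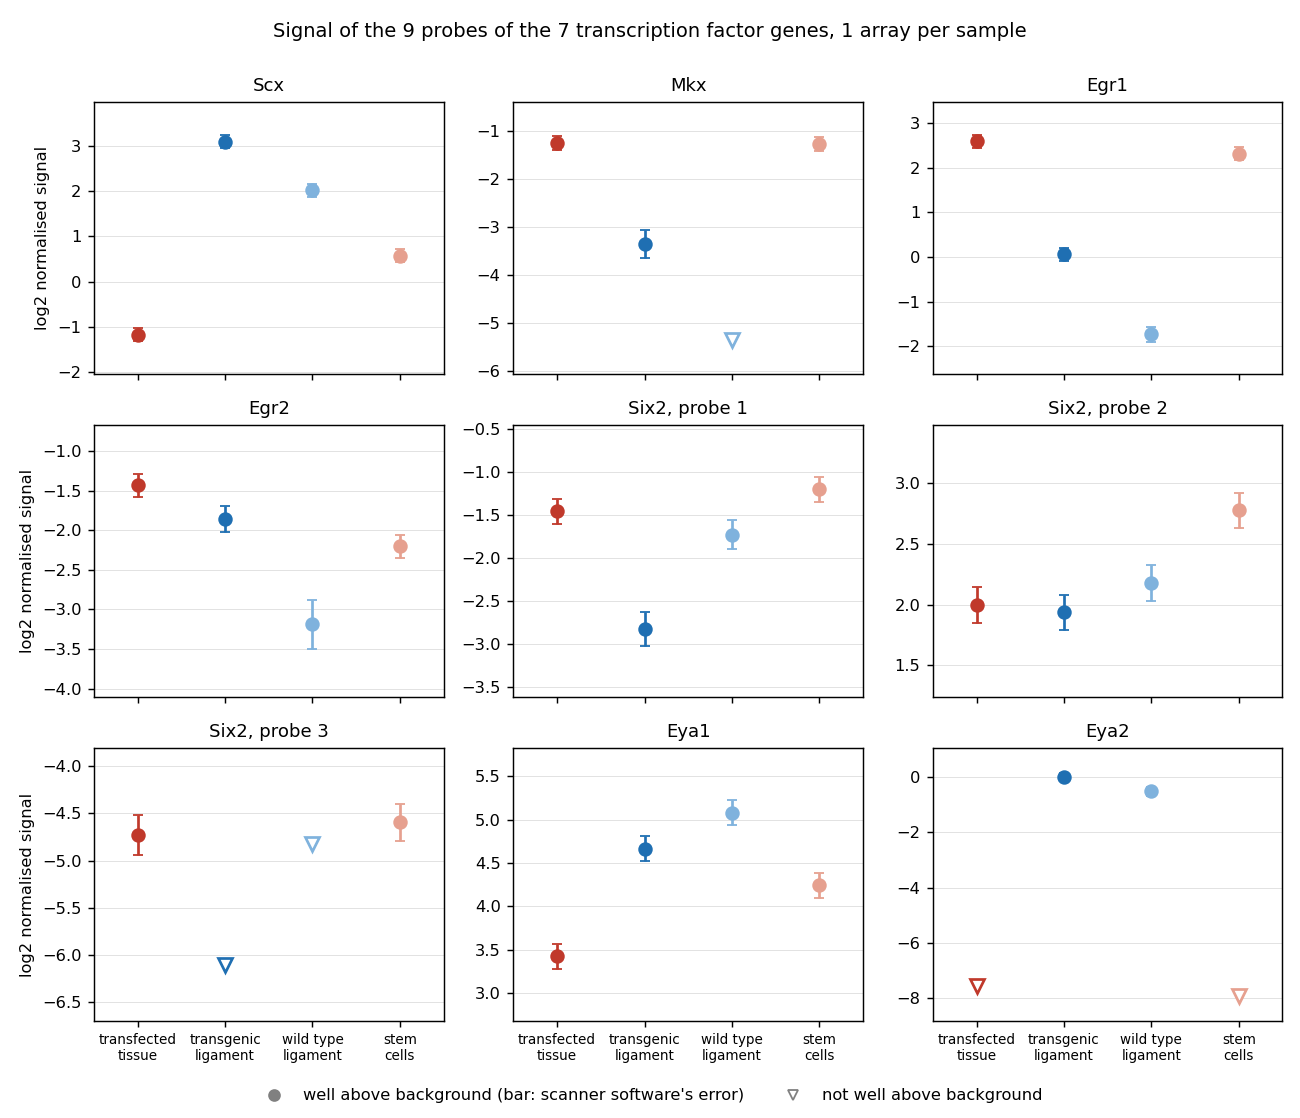
Log2 normalised signal (y axis) of the 9 probes on the 4 arrays (x axis), 1 array per sample. Filled points are well above background, with the scanner software's error as bars, and open triangles are not. Scx is highest in both ligaments and Egr1 and Mkx on the cell arrays, Eya2 is well above background in ligament only, and the 3 Six2 probes differ in shape.

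Counted over the members, the transfected tissue showed 1 lower gene and none higher against stem cells, out of 6 compared. In that comparison 13.3% of 17902 genes were lower and 11.0% higher. Transgenic over wild type ligament had 3 of 7 higher (Scx, Egr1 and Egr2) and none lower, where 6.29% of 16425 genes were higher and 7.05% lower. The median of the 7 was 0.51 against -0.03 over all genes. The 7 include the reading of the Eya1 probe (-0.42) and Mkx, whose 0.06 was only a lower bound. Wild type ligament over stem cells had 2 of 7 higher (Scx and Eya2) and 2 lower (Mkx and Egr1), where 37.7% of 16603 genes were higher and 24.5% lower (6267 and 4066 genes, or 5363 and 5227 with quantile normalization). The transfected tissue over wild type ligament had 3 higher (Mkx, Egr1 and Egr2) and 3 lower (Scx, Eya1 and Eya2), or 2 lower without the Eya1 probe, where 23.0% of 16543 genes were higher and 39.7% lower (3798 and 6566 genes, or 5093 and 5167 with quantile normalization). The wild type ligament array serves in 3 of these comparisons and the stem cell array in 2, so their values are not independent.

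**Figure D4:**
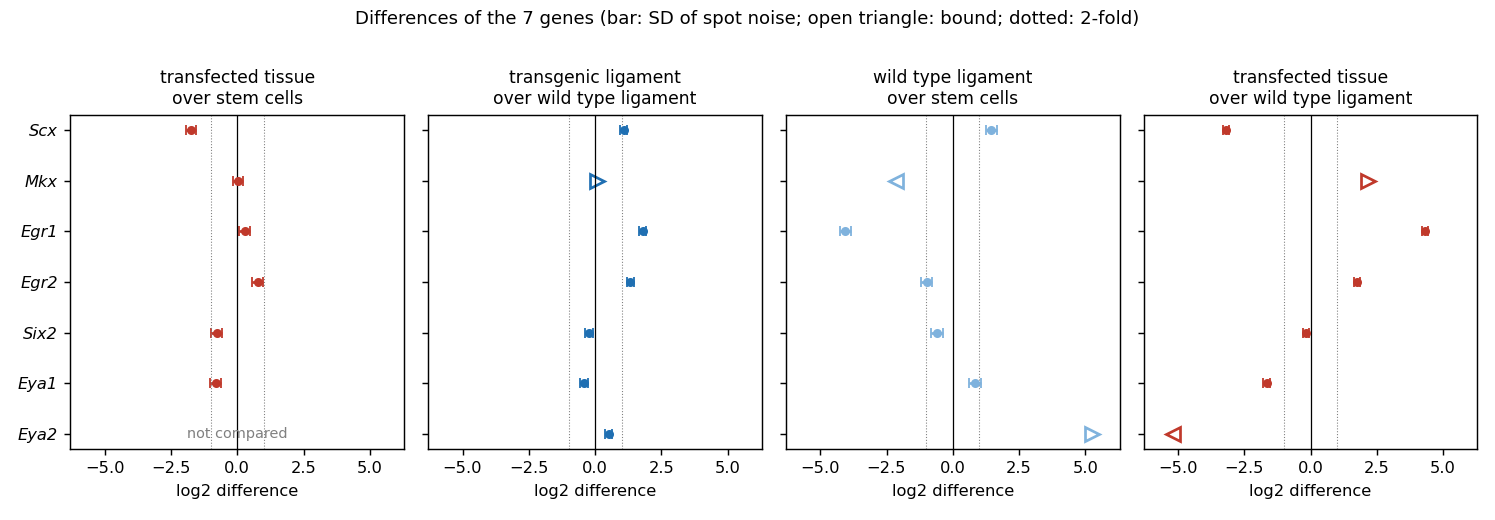
Log2 differences (x axis) of the 7 genes (y axis) in the 4 comparisons, with the SD of spot noise as bars, bounds as open triangles and 2-fold dotted. Scx lies left of 0 in the transfected tissue over stem cells and right of 0 in transgenic over wild type ligament, and the transfected tissue over wild type ligament has 3 genes past 2-fold on each side.

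Matrix genes that tendon cells make under these factors were set beside them. In the transfected tissue over stem cells, where Scx was lower, 3 of 15 compared were higher, 4 were lower and 8 were not past 2-fold (median -0.66 against -0.08 over all genes). Among the 8, Thbs4 had only a bound. It was not well above background in the transfected tissue and at least 1.70-fold lower, so its gap may exceed 2-fold. The higher genes were the proteoglycan genes Lum (4.84) and Dcn (2.76) and Kera, at least 5.91-fold. The lower genes were the collagens Col5a1 (-1.27), Col12a1 (-1.19) and Col1a1 (-1.07) and the matricellular gene Tnc, at least 4.89-fold. In the same comparison 3 of 4 adipocyte markers were higher, with Cfd at least 52.3-fold, and 4 of 7 mesenchymal stromal markers were lower, with Thy1 at -1.48. Their part in the matrix values was not tested. In transgenic over wild type ligament, where Scx, Egr1 and Egr2 were higher, 7 of 16 were higher and none lower (median 0.74 against -0.03). Comp (2.58), Tnmd (2.45), Fmod (2.15), Thbs4 (2.01), Chad (1.53), Kera (1.44) and Col1a2 (1.02) were past 2-fold. The other 9 lay within 2-fold. Of the 16, 12 lay above 0 and 4 below, among the latter Col1a1 (-0.52) and Col12a1 (-0.18), while Col5a1 was level at 0.00. The type I collagen genes Col1a1 and Col1a2 thus differed in opposite directions. Cartilage also makes several of these proteins, and 2 of its 5 markers compared there were higher, among them Col2a1 (2.16). The part of cartilage in the matrix values was not tested. Tnmd, a membrane protein gene that needs Scx in tendon, read 0.327 in the transfected tissue, 0.740 in transgenic ligament, 0.135 in wild type ligament, against 0.516 in stem cells. Its order over the arrays was not that of Scx, since stem cells and the transfected tissue lay above wild type ligament.

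Growth factor genes that act on tendon cells were counted in the same way. Among TGF-beta, GDF and FGF pathway genes, 2 of 17 compared in the transfected tissue over stem cells were lower and none higher. The lower genes were Tgfb3 (-1.63), a TGF-beta ligand made by tendon, and Etv4 (-2.16), a nuclear target of FGF signals. Over all genes 13.3% were lower there and 11.0% higher. In transgenic over wild type ligament, 1 of 16 was higher (Etv4, 1.15) and 2 lower, Mstn (-1.72), which muscle secretes, and Gdf7, at least 7.07-fold. The shares over all genes were 6.29% and 7.05%. In wild type ligament over stem cells 5 of 16 were higher and 4 lower, among them Spry1 (2.82), an inhibitor of FGF signals, and the ligand Tgfb2 (-2.14). In the transfected tissue over wild type ligament 4 of 17 were higher and 6 lower, against 23.0% and 39.7% of all genes.

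Some genes followed a member's profile closely over the 4 arrays, out of 10213 genes well above background on all of them. Distance is Euclidean, on log2 normalised signals with each gene's mean removed, and with 4 points such neighbours describe these arrays alone. Nearest to Scx were Sema3g at 0.250, Gja4 at 0.443 and Sh3d21 at 0.540, and 2 genes lay within 0.5. Sema3g read 0.0334 in the transfected tissue, 0.820 in transgenic ligament, 0.331 in wild type ligament, against 0.120 in stem cells. Nearest to Egr1 were Matn2 (0.244), Il1r1 (0.305) and Sec24d (0.332), with 10 genes within 0.5, and nearest to Egr2 were Itgav (0.210), Avl9 (0.219) and Spty2d1 (0.242), with 42. Six2, which varied little, had 500 genes within 0.5. Among the 5 members well above background on all 4 arrays, Egr1 and Egr2 lay 2.64 apart. Scx and Egr1 were the farthest from each other of these 5, at 6.35.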

How the data were processed

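Per the file headers, the deposited scanner files hold spot intensity on a linear scale, as processed signal with its error (background-subtracted and detrended by Agilent Feature Extraction 10.7.1.1) and as raw spot and local background signal. The submitters' processing notes name version 9.5.1.1. A value table by the authors is on a linear intensity scale too; how it was normalized is not given in the sources used here. Spots marked as outliers, 155 to 281 on an array, were removed, none was saturated, and spots of a probe were averaged. Processed signals were divided by the array's 75th percentile over 43020 non-control spots, and log2 was taken. The brightest probe stood for a gene. RefSeq accessions (GRCm38.p6 table) named 26755 of 39429 probes, and the files' symbols named the rest. Probe positions are those of the files (mm9). No test was possible with 1 array per group, and the small number of arrays sets the precision. Alternatives used limma 3.58.1 in R 4.3.3 (normexp, offset 50). The comparison step was checked on simulated data. Members and lists were chosen with earlier results of these data known. Named list genes were those past 2-fold in the transfected tissue over stem cells or in transgenic over wild type ligament. All EGR and NAB genes could be named too, and otherwise the 3 largest per direction. Pattern neighbours were the 3 nearest genes. Of cell type markers, up to 2 per list could be named or those not well above background. Of 173 list genes, 171 were on the array. The Eya1 neighbours were kept only for their probe sequence. Scx, Egr2 and chromosome 18 members are described without probe sequence. A few list genes and markers are not reported here by name.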

Additional observations from a re-analysis of the deposited data

Results flagged for a closer look

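Scx differed in opposite directions in culture and in the animal. Its log2 difference was -1.75 in the transfected tissue over stem cells and 1.08 in transgenic over wild type ligament. Among the list genes, 3 were past 2-fold in opposite directions in the same way. Nab2, the EGR corepressor, differed by -1.68 in the transfected tissue over stem cells and by 2.18 in transgenic over wild type ligament. Ccn2 differed by -1.75 and 1.86 in the same comparisons, and the FGF target Etv4 by -2.16 and 1.15. With 1 array per group the difference between the comparisons was not tested.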

How the results depend on the processing

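With normexp background correction, 1 member in place of 3 was higher in the transfected tissue over wild type ligament, and 1 in place of 2 was lower in wild type ligament over stem cells. With bounds left out and both arrays required to be well above background, 1 was higher and 1 lower in wild type ligament over stem cells. The counts of members past 2-fold were otherwise within 1.5 times the reported ones, also without the Eya1 probe, an alternative chosen after seeing the data. No difference past 2-fold of a member changed sign. Scx in transgenic over wild type ligament ended just under 2-fold in the deposited values (1.00). Egr2 in wild type ligament over stem cells was -0.99, or -1.82 in the deposited values and 0.15 with normexp, and in the transfected tissue over wild type ligament it was 0.44 with normexp. Mkx in transgenic over wild type ligament had a bound of 2.01 with the less strict detection mark. The Eya1 reading in the transfected tissue over wild type ligament was -0.78 in the deposited values. The median log2 difference of detected genes in wild type ligament over stem cells was 0.37, or -0.16 with quantile normalization and 0.77 with normexp, so values of that comparison hold relative to this shift. All genes higher in transgenic over wild type ligament numbered 1033, or 405 with normexp, 682 with both arrays well above background and 2147 with the less strict mark, and those lower 1158, or 575 with normexp and 2097 with that mark. In the transfected tissue over stem cells 1961 were higher, or 1073 with normexp and 2947 with that mark, and 2384 were lower, or 3585 with that mark. The cause of these changes was not tested. No paired analysis was possible because each group had 1 array.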
